A study of Mus musculus with 10 samples.

Results

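The regions described here are distal sites of accessible chromatin that had an ATAC-seq summit in the middle of a differentiation time course and in neither its start nor its end. Summits from 10 peak lists (chromosomes 1 to 19 and X) were extended by 250 bp on each side and merged into 28976 regions, of which 18667 were distal, that is, more than 1 kb from every start of a protein-coding transcript. A distal region was a member if none of the 4 lists of 0 h and 24 h held a summit in it and at least 3 of the 6 lists of 2 h, 6 h and 12 h did. In all, 741 regions met the rule, which is 3.97% of the distal regions. Because the members were selected on the presence of summits in these lists, their presence, timing and scores are given as a description with no test.

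The cells were G1E-ER4, mouse erythroid progenitors derived as 1 subclone from G1E, a line without a working Gata1 gene, in which a GATA1-ER fusion protein (GATA1 joined to the hormone-binding part of the estrogen receptor) is made at all times. All groups, 0 h included, carried the Gata1 deletion and the fusion and were kept in medium with stem cell factor and erythropoietin. They differed in the time in 1e-07 M β-estradiol (0, 2, 6, 12 or 24 h), and each time point was sampled by 2 libraries of about 50000 cells. The study describes its replicates as independent experiments, and the labels do not say which culture each library came from. Promoter peaks were checked for erythroid genes. Those of Epor, Zfpm1 and Nfe2 were in all 10 lists, while Hbb-bt, Hba-a1, Alas2 and Slc4a1 had none in any list. Between these were Lmo2 with a promoter peak in 7 lists, Klf1 and Gfi1b in 4 each, and Tal1 in 2. The promoter of the progenitor gene Kit had a peak in 9 lists and those of Gata2 and Cd34 in none. No promoter peak was found for the markers of T cells, B cells, hepatocytes, muscle, neurons or neutrophils that were checked.

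GATA1 is a zinc finger factor that binds sequences with a GATA core and drives the maturation of red cell precursors, often together with TAL1 and KLF1. When β-estradiol is added, the fusion protein becomes active in the nucleus, and the cells leave a proliferating progenitor state for terminal erythroid maturation. Distal accessible sites in such cells include enhancers bound by lineage factors and insulator sites bound by CTCF, a factor that shapes chromatin loops. ATAC-seq marks them because the Tn5 transposase cuts preferentially where nucleosomes are absent.

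Members were ranked by the number of mid-course lists that held them and then by the mean percentile of their scores within those lists. The following 200 bp stretches, centred on the median summit, belong to 5 of the 21 members with a summit in all 6 mid-course lists. The Rcor1, Asb17, Kctd13 and Lonrf1 members were picked, after their matches had been seen, to show where matches lie, and the Lactb member to show a stretch with no such match. Coordinates are mm10, the strand is plus, and capitals mark every match to the GATA, RUNX, KLF or AP-1 motif on either strand.
Rcor1 member, chr12:111065461-111065660: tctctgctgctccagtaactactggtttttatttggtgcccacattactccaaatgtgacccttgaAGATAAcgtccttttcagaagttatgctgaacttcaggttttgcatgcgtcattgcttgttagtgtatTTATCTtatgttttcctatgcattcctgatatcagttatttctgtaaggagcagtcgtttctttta
Lactb member, chr9:67001222-67001421: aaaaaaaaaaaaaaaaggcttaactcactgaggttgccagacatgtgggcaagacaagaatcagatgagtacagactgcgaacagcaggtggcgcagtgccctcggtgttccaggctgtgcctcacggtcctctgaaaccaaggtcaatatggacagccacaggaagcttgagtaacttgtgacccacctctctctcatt
Asb17 member, chr3:153835760-153835959: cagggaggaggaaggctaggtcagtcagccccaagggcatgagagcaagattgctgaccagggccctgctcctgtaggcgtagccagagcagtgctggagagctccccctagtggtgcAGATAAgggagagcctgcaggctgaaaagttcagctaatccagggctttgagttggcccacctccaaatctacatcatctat
Kctd13 member, chr7:126926421-126926620: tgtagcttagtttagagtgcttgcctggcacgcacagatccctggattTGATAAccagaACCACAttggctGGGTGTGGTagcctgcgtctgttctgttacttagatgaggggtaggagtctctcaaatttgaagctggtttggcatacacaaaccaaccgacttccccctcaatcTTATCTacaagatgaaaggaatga
Lonrf1 member, chr8:36184119-36184318: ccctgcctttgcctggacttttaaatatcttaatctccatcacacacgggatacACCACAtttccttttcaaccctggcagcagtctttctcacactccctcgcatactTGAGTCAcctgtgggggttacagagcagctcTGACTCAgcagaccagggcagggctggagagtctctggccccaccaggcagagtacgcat

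A second set shows CTCF consensus matches, since this motif was the one whose share among members stood furthest, in percentage points, above that of all distal regions. The 80 bp stretches are placed around the match, which is in capitals, and were picked after the values had been seen. The Gm9958 member was in 6 lists and the other members shown were in 5 lists.
Gm9958 member, chr5:90383283-90383362: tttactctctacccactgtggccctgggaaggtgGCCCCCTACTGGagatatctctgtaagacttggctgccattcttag
Lrrc74a member, chr12:86772219-86772298: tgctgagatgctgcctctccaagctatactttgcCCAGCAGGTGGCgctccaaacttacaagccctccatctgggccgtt
Slc52a2 member, chr15:76552858-76552937: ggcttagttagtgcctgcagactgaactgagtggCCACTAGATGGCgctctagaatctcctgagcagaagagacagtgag
Akap13 member, chr7:75639685-75639764: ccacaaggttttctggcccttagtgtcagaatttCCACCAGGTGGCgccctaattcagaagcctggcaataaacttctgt

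The last sequence is the member in an intron of Kit, the receptor of stem cell factor. Its AGATAA match, in capitals, begins 2 bp from the median summit, and an AP-1 match (TGACTCA) near the start of the stretch is left in lower case.
Kit member, chr5:75633412-75633611: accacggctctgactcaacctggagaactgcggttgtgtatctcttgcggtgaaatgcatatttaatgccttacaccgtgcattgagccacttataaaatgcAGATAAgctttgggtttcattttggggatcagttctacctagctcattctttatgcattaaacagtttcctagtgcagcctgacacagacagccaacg

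Most members met the rule with the smallest number of lists it allows. A summit was present in exactly 3 mid-course lists for 500 members (67.5%), in 4 lists for 168 (22.7%), in 5 lists for 52 (7.02%) and in all 6 for 21 (2.83%). A further 1328 distal regions fell just outside the rule with 2 mid-course lists and no list of 0 h or 24 h. Another 1293 were in at least 3 mid-course lists and in exactly 1 list of the ends, which was 24 h replicate 1 for 509 regions, 0 h replicate 1 for 482, 0 h replicate 2 for 175 and 24 h replicate 2 for 127. The peaks of members in exactly 3 lists had a median within-list percentile of 23.4, against 20.01 for regions just outside with 2 lists and 28.6 for regions just outside with 1 end list. Members were 11.4% of the 6483 distal regions held by at least 3 mid-course lists.

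The lists differed in how many members they held, and the order of the 6 mid-course lists by members was their order by size. The 2 h lists held 455 and 376 members (replicates 1 and 2), the 6 h lists 358 and 618, and the 12 h lists 437 and 314. The 6 h replicate 2 list alone held 83.4% of the members and was also the longest of the 10, with 19855 peaks. The other mid-course lists had 16113, 14272, 14210, 15419 and 13826 peaks, and the lists of the ends had 15256 and 11697 peaks (0 h) and 15570 and 10697 (24 h). Mid-course lists averaged 15616 ± 2247 peaks (SD, n = 6) and end lists 13305 ± 2471 (SD, n = 4), a difference that did not pass the exact permutation test over libraries (two-sided p = 0.195, adjusted p = 0.286 over 4 tests). The ranges of the 2 groups overlapped. List size counts member peaks, which the rule allows only in mid-course lists (316 to 623 per list), so this test is not fully independent of the rule. The number of reads behind each list is not given in the files, so the share of the list-size differences owed to sequencing depth was not tested.

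**Figure D1:**
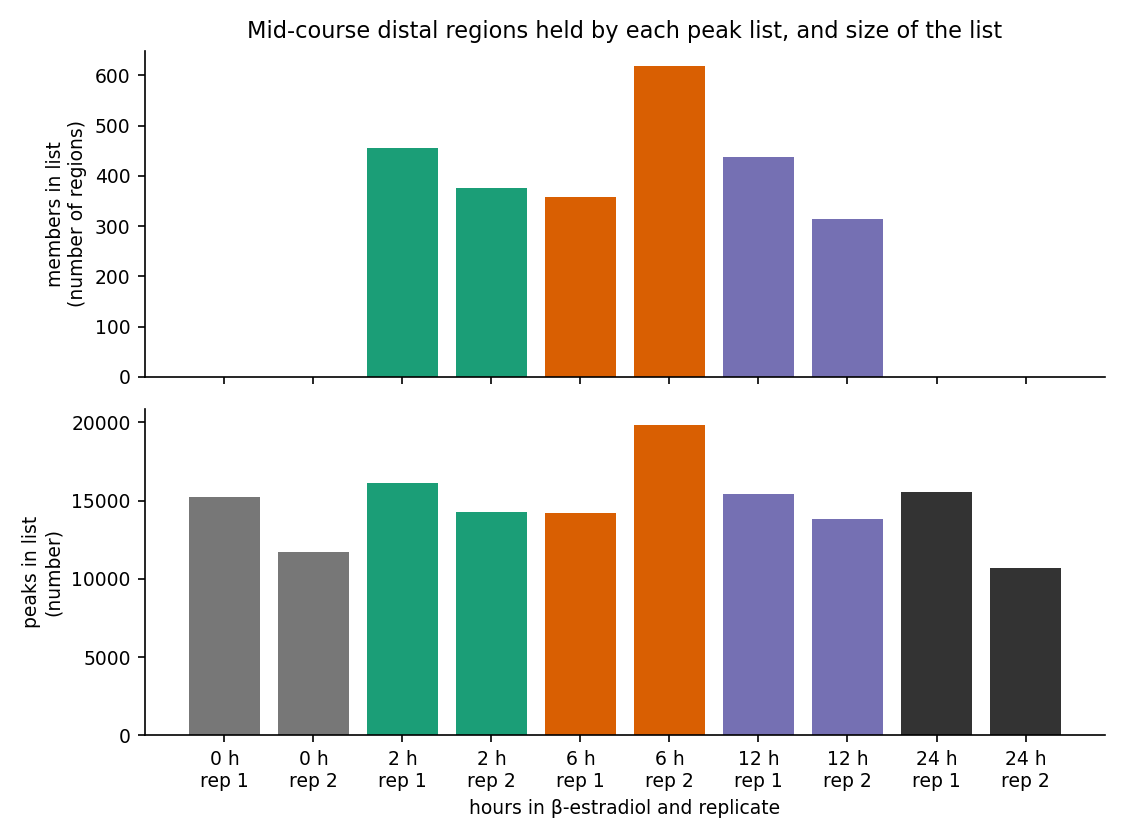
Upper bars give the number of the 741 members with a summit in each of the 10 lists, and lower bars the number of peaks in that list, by hours in β-estradiol and replicate. The end lists hold 0 members by the rule, and 6 h replicate 2 has both the most members (618) and the most peaks (19855).

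The member count depended on list length. When every list was cut to its 10697 best-scoring peaks, the size of the shortest list, 214 of 10987 distal regions met the rule (1.95%), and 92 of them overlapped one of the 741 members. The opposite pattern was absence from all 6 mid-course lists with presence in at least 2 of the 4 end lists. It was met by 193 of 18667 distal regions (1.03%) in the full lists and by 315 of 10987 in the equal lists. Mid-course-only regions were therefore more numerous than those of the opposite direction in the full lists and less numerous in the equal lists. The 2 rules ask for presence and absence in different numbers of lists, so their counts need not match where time has no effect. Leaving out 6 h replicate 2 gave 348 members (2.07% of 16794 distal regions) beside 338 of the opposite direction. Leaving out 2 h replicate 1 gave 466 members (2.60%). Without 0 h replicate 1 there were 1227 (6.80%) and without 24 h replicate 1 there were 1251 (7.09%). The minimum numbers of lists were kept, so leaving out a mid-course list made the member rule harder to meet and the opposite rule easier. Leaving out an end list did the reverse, so the direction of these changes follows from the rule.

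**Figure D2:**
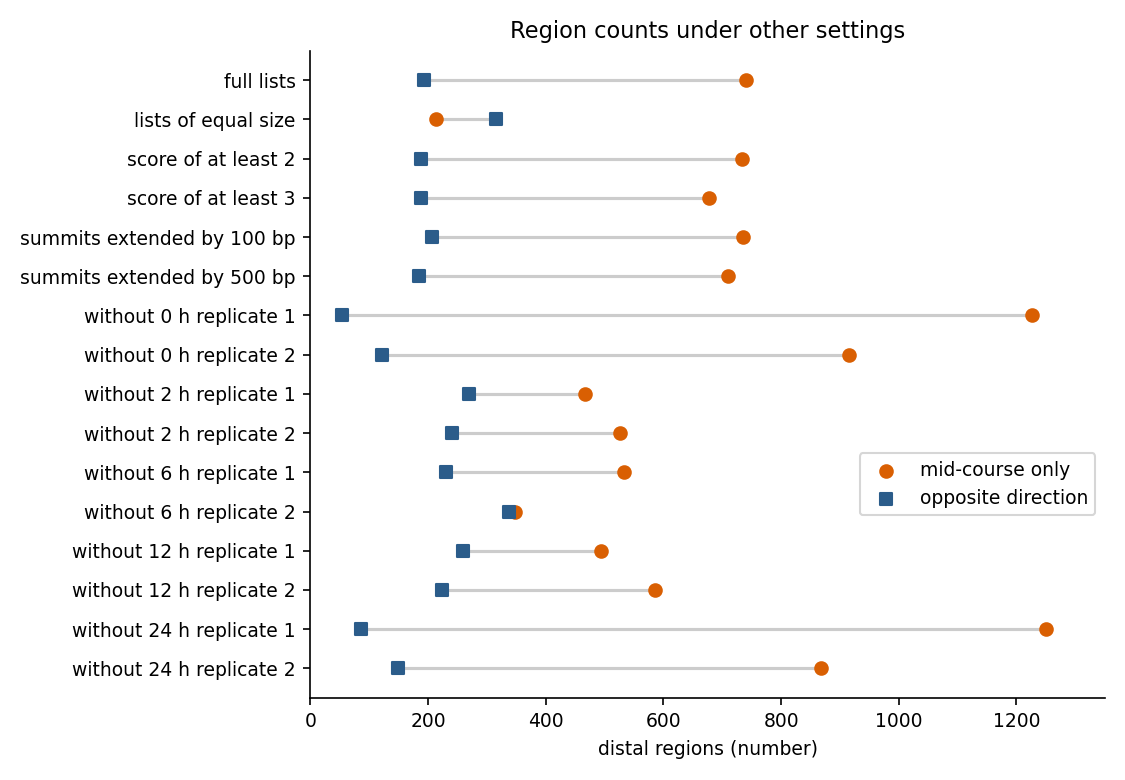
Circles give the number of distal regions seen only mid-course and squares the number of the opposite direction, in the full lists and under each other setting. Circles lie to the right of squares in every row except that of equal-size lists, where 214 lie below 315, and the symbols nearly meet without 6 h replicate 2 (348 and 338). The rules for circles and squares ask for different numbers of lists, so their counts need not match. Leaving out a library makes one rule harder and the other easier to meet. The total of distal regions also differs between settings.

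The 92 members that were also found with equal lists were 12.4% of all members and included the 10 highest ranked. Of these, 15 were in 6 mid-course lists, 25 in 5, 34 in 4 and 18 in 3. Their mean percentiles had a median of 40.6. A GATA match was present in 38 of them (41.3%) and a CTCF match in 9 (9.78%).

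The time points were covered unevenly. Both lists of a time point held a summit for 282 members at 6 h (38.1%), for 210 at 2 h (28.3%) and for 173 at 12 h (23.3%). For 202 members no time point had a summit in both of its lists. All 3 mid-course times were represented for 411 members (55.5%), while 163 members had summits at 2 h and 6 h but not 12 h, 120 at 6 h and 12 h but not 2 h, and 47 at 2 h and 12 h but not 6 h.

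Peaks in members were low in their lists. The 2571 member peaks had a median score of 4.31, with a range of 1.31 to 17.9, where the score is the −log10 q-value of the peak in its own library. Scores were not scaled between libraries, so the percentile within the list is the measure used across them, and its median over member peaks was 24.8 (quartiles 12.0 and 40.2). The 126 peaks of the members in 6 lists had a median percentile of 33.3. By comparison, the median percentile was 28.4 for other distal regions in 3 to 6 lists and 70.2 for the 1216 distal regions in all 10 lists. A peak above the 75th percentile occurred in 16 members, and 481 members had every peak under the 50th. Summits of a member lay within a median span of 126 bp (quartiles 80 and 185), and the nearest summit of a 0 h or 24 h list was a median of 12.8 kb away, although it was within 1 kb for 31 members.

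The 10 highest-ranked members all had a summit in each mid-course list. The first lay in an intron of Mbp, which encodes myelin basic protein, 4.37 kb from the nearest start (chr18:82558949-82559744). Its scores were 9.20 and 7.88 (2 h), 8.18 and 8.45 (6 h) and 4.23 and 5.02 (12 h). The second was in an intron of Rcor1, which encodes a corepressor that works with the histone demethylase LSD1, and scored 8.39 and 8.57 (2 h), 9.0 and 9.50 (6 h) and 2.91 and 5.93 (12 h). In both, the 12 h peaks were below all peaks of 2 h and 6 h, by score and by percentile within the list. The printed sequences of the Rcor1 and Kctd13 members each carry a GATA match on either side of the summit.

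The third was intergenic, 25.5 kb from the start of Lactb, a mitochondrial protein gene, with scores of 7.43 and 2.21 (2 h), 6.76 and 11.1 (6 h) and 9.73 and 3.73 (12 h). The fourth was intergenic, 7.96 kb from the start of Asb17, a gene of the ankyrin repeat and SOCS box family, and scored 6.77 and 4.54 (2 h), 4.88 and 7.82 (6 h) and 5.31 and 9.20 (12 h). For neither member did the percentiles of the time points separate. The member near Kctd13, an adaptor of a cullin ubiquitin ligase, scored 7.16 and 6.62 (2 h), 5.82 and 3.12 (6 h) and 5.41 and 4.91 (12 h). The member near Gm9958, a predicted gene, scored 7.06 and 6.52 (2 h), 2.99 and 10.2 (6 h) and 4.51 and 4.74 (12 h). In both, each 2 h peak was above each 12 h peak by score and by percentile, while the 6 h replicates lay far apart.

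The seventh to the tenth were near Prr3, Lonrf1, Iars (isoleucyl-tRNA synthetase) and Arhgef37. The Prr3 member scored 8.52 and 5.52 (2 h), 4.82 and 7.67 (6 h) and 3.46 and 3.72 (12 h). As for Mbp and Rcor1, its 12 h peaks were below all peaks of 2 h and 6 h, by score and by percentile. The Lonrf1 member, 65.0 kb from the nearest start, scored 5.14 and 5.05 (2 h), 6.45 and 6.22 (6 h) and 5.47 and 2.83 (12 h). The printed sequence of the Lonrf1 member holds a pair of AP-1 matches. The Iars member scored 8.79 and 4.82 (2 h), 4.26 and 6.72 (6 h) and 4.84 and 3.21 (12 h). The Arhgef37 member scored 6.88 and 2.98 (2 h), 3.79 and 9.59 (6 h) and 5.2 and 4.86 (12 h). Neither showed a full order of time points that both replicates shared. At Iars, however, the 2 h peak was above the 12 h peak in each replicate, by score and by percentile.

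**Figure D3:**
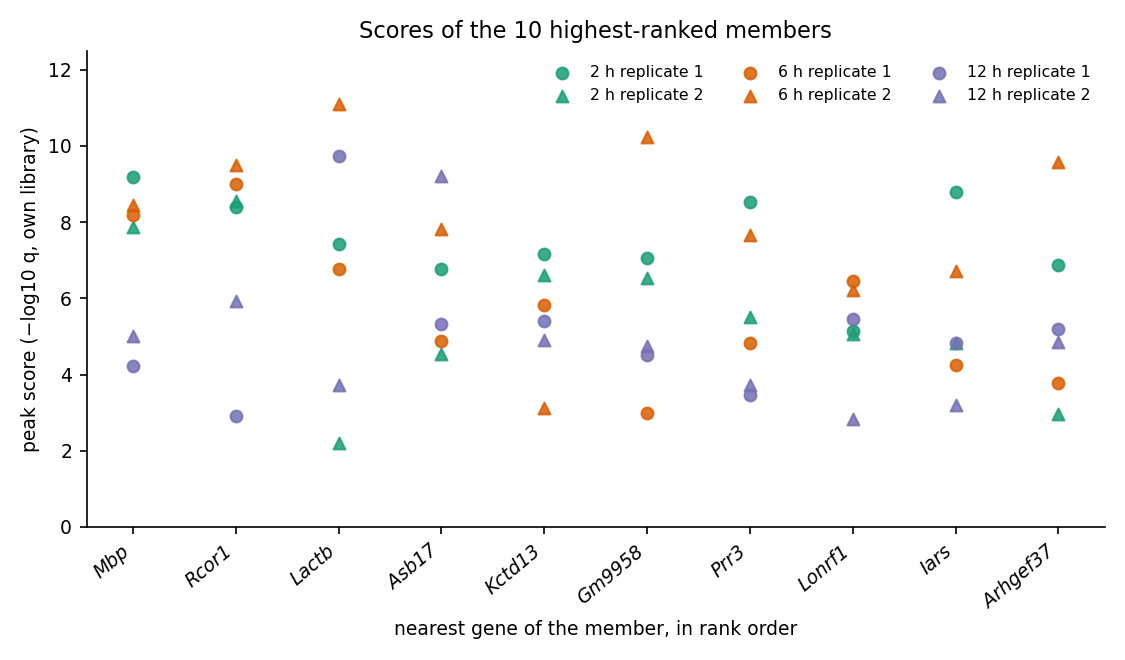
Points give the peak score (−log10 q in its own library) of the 10 highest-ranked members, one colour per time point, circles for replicate 1 and triangles for replicate 2. Scores run from 2.21 to 11.1, and the 12 h points lie below the 2 h and 6 h points at Mbp, Rcor1 and Prr3.

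Members were spread over the genome. Of the 741, 397 were intronic (53.6%), 320 intergenic (43.2%) and 24 exonic (3.24%). The median distance to the nearest protein-coding start was 16.7 kb, against 18.3 kb for all distal regions, and 121 members (16.3%) were over 50 kb away, against 21.7%. The median GC content of the central 200 bp was 49.5%, against 48.5% for all distal regions and 52.0% for those in all 10 lists. The members had 689 different nearest genes, of which 47 had more than 1 member. Asb17, Auts2, Gda, Irak1bp1 and Zfp608 had 3 each. Only 18 members lay within 10 kb of another member.

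Sequence was not used by the rule, and motif matches were counted on both strands in the 200 bp around the region midpoint. A match describes the letters and does not show that a factor binds. A GATA match (AGATAA or TGATAA) was found in 291 members, 39.3% (exact binomial 95% interval 35.7 to 42.9, for counting error only), close to the 38.1% of all distal regions. The share was 44.7% in distal regions in all 10 lists, 42.2% in other distal regions in 3 to 6 lists, 49.8% in the 239 regions gained after 0 h and kept in both 24 h lists, and 47.7% in regions of the opposite direction. With equal-size lists the share was 45.8% in members and 42.8% in all distal regions. Members with a summit in both lists of a time point had a GATA match in 47.1% of cases for 2 h, 33.3% for 6 h and 43.4% for 12 h. The composite motif of TAL1 and GATA1 (a CTG placed 7 or 8 bases before AGATAA or TGATAA), which overlaps the GATA motif, was in 6.21% of members, 7.12% of all distal regions and 13.7% of those in all 10 lists.

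The CTCF consensus was found in 100 members, 13.5% (exact binomial 95% interval 11.1 to 16.2, for counting error only). Regions are not replicates, so this interval is no test against other sets. The consensus was in 8.02% of all distal regions, 9.29% of other distal regions in 3 to 6 lists and 2.14% of those in all 10 lists. It was in 9.21% of the regions gained and kept and in 6.74% of those of the opposite direction. Among regions in exactly 3 lists, 13.8% of members and 9.93% of other distal regions had a match. The corresponding values were 13.1% and 11.2% for 4 lists, 13.5% and 7.67% for 5 lists, and 9.52% and 7.64% for 6 lists, the last with only 21 members. By library, the share among the members present ran from 11.8% (12 h replicate 2) to 14.2% (6 h replicate 2). With equal-size lists the share was 7.94% in members and 7.23% in all distal regions, so the excess over distal regions was under 1 percentage point. The share among all distal regions of a list was 5.25% and 3.87% (0 h), 6.26% to 7.84% (the 6 mid-course lists) and 8.16% and 5.79% (24 h). The list with the highest share was thus 24 h replicate 1, which holds no member.

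The members with a CTCF match were divided evenly between introns (48) and intergenic sequence (48), with 4 in exons. Their summits spanned a median of 100 bp, against 131 bp in the 641 members without a match, and their median GC content was 52.5%, against 49.0%. A GATA match was also present in 11 of them. In the 500 bp around the median summit, 60.9% of the 115 CTCF matches of members lay within 50 bp of it, at a median distance of 35.5 bp. For the 713 GATA matches of members this share was 31.3%, at a median of 84.5 bp. The shares over all distal regions were 55.4% for CTCF and 30.7% for GATA. In distal regions in all 10 lists, the shares were 35.8% of 53 CTCF matches and 36.1% of GATA matches. The Lrrc74a member, which has one of the CTCF matches printed above, scored 7.14 and 6.90 (2 h), 4.84 and 11.0 (6 h) and 7.63 in 12 h replicate 1, with no summit in the other 12 h list. The Slc52a2 member, near a riboflavin transporter gene, scored 6.36 in 2 h replicate 1, had no summit in replicate 2, and scored 5.88 and 5.63 at 6 h and 8.07 and 6.25 at 12 h.

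**Figure D4:**
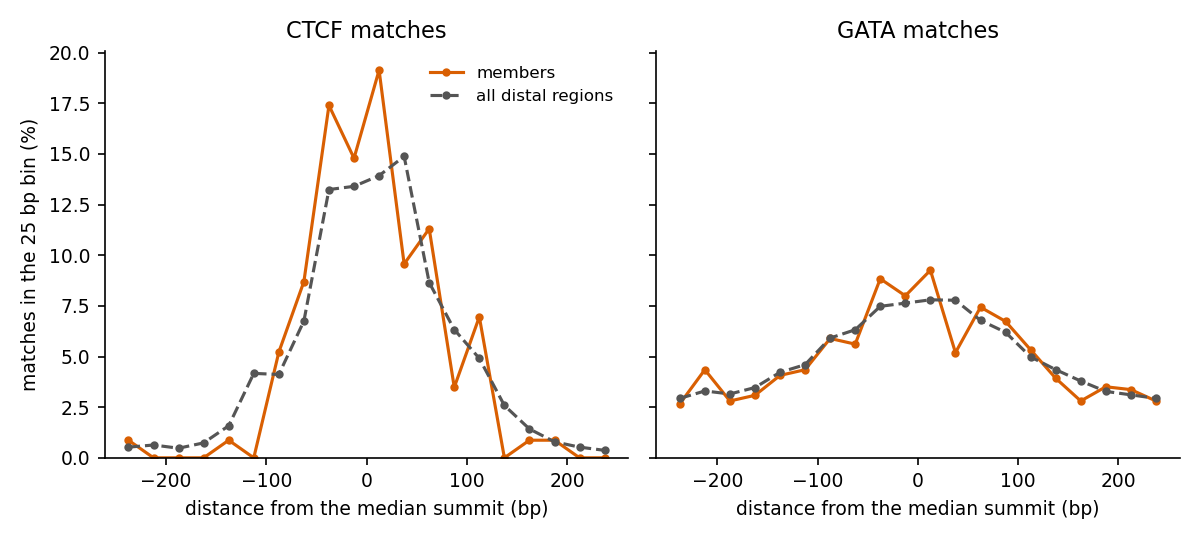
Lines give the percent of motif matches in each 25 bp bin by distance from the median summit, in members (solid) and in all distal regions (dashed). CTCF matches crowd around the summit in both sets (60.9% and 55.4% within 50 bp), and GATA matches do so less (31.3% and 30.7%).

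For each other motif counted, the share in members was nearer, in percentage points, to that in all distal regions than for CTCF. The AP-1 motif, the site of FOS and JUN dimers (TGAGTCA or TGACTCA), was in 9.18% of members and 6.98% of all distal regions, and in 10.4% of regions of the opposite direction. The RUNX motif (TGTGGT) was in 20.6% of members and 20.4% of all distal regions, the KLF motif (CCACNCCC) in 9.31% and 9.07%, and the ETS motif (CNGGAAGT) in 4.86% and 4.77%. The CArG box, bound by SRF, was in 13 members (1.75%, against 0.937%) and the CREB motif (TGACGTCA) in 4 (0.540%, against 0.316%), both few. The E-box (CANNTG) was in 71.8% of members and 70.3% of all distal regions, and the MYB motif (AACNGC) in 31.0% and 30.3%. The STAT motif (TTCNNNGAA) was in 4.86% of members and 6.85% of all distal regions. The estrogen response element (GGTCA, 3 bases, TGACC), the sequence bound by the intact estrogen receptor, was in 0 of 741 members, which allows a share of up to 0.405%, and in 6 of all distal regions (0.0321%).

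**Figure D5:**
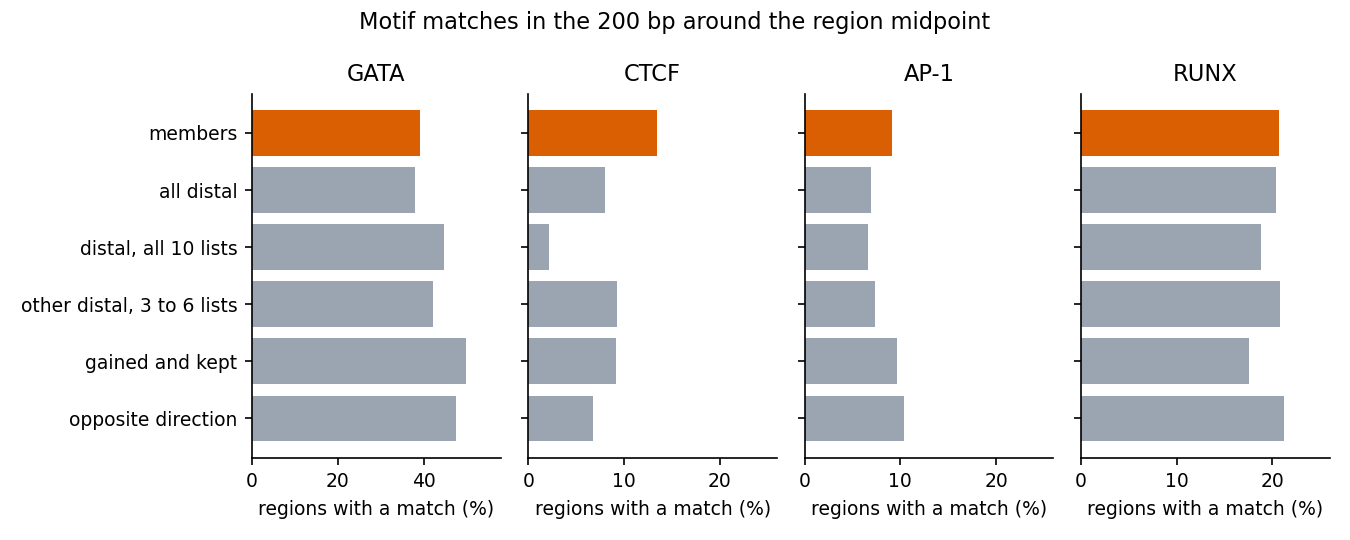
Bars give the percent of regions with a GATA, CTCF, AP-1 or RUNX match in the central 200 bp, for members (orange) and 5 other sets of distal regions (grey). Members have the longest CTCF bar (13.5%, against 8.02% in all distal regions), while their GATA bar (39.3%) is near that of all distal regions (38.1%).

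Members near genes of known pathways were counted within 100 kb of the most upstream start. Of all 21646 protein-coding genes, 2406 (11.1%) had a member in that distance, and members were 4.16% of the 16137 distal regions near any gene. Of 24 cytokine signalling genes, 11 (45.8%) had a member, and members were 13 of the 127 distal regions near them (10.2%). The genes were Kit, Jak2, Socs3, Cish, Pim1, Bcl2l1, Il1rl1, Il6ra, Lifr, Tgfbr1 and Spred2, which cover receptors, a kinase of erythropoietin signalling, its feedback inhibitors and survival factors. A member within 100 kb need not lie closest to the listed gene. Those of Socs3, Cish, Il1rl1 and Il6ra lay closest to Pgs1, Mapkapk3, Il1rl2 and Atp8b2, in that order. The list of cytokine genes was chosen with results of these data known, and the number of distal regions per gene differs between lists.

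The Kit member (chr5:75633212-75633795) was in an intron, 58.6 kb downstream of the start. It scored 4.16 and 4.15 at 2 h, 4.44 in 6 h replicate 2 with no summit in replicate 1, and 2.96 and 3.56 at 12 h. Both 12 h peaks were below the other 3 by score and by percentile, and its mean percentile was 17.3, so its peaks were among the lower of their lists. Kit is a progenitor gene that GATA1 represses during maturation. The higher-ranked member near Pim1 (chr17:29396768-29397456) was 93.6 kb upstream of this survival kinase gene and lay closest to Fgd2. It scored 3.97 and 4.12 at 2 h, 5.07 and 3.06 at 6 h, and 5.2 in 12 h replicate 1, with no summit in replicate 2. A lower-ranked member, 45.5 kb upstream of Pim1 and closest to it, was in 3 lists. The member 92.0 kb downstream of the start of Bcl2l1, which encodes the anti-apoptotic protein BCL-XL, lay closest to Id1 and scored 5.66 in 2 h replicate 2, 4.02 and 5.86 at 6 h, and 4.29 in 12 h replicate 1.

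Of 29 erythroid transcription factors and partners, 8 had a member, and members were 8 of the 221 distal regions near them (3.62%, against 4.16% near all genes). The highest ranked was 83.0 kb from the start of Zbtb7a, a repressor of fetal globin genes, and scored 2.24 and 3.69 at 2 h, 2.04 in 6 h replicate 2, and 5.93 and 2.45 at 12 h. The next were 57.3 kb from Tcf3, which encodes the E proteins that pair with TAL1, in 4 lists, and in an intron of Foxo3, a factor of late red cell maturation, in 3 lists. The others of this group were 5.08 kb from the start of Gfi1b and 70.4 kb from that of Klf13. Those of Myb, E2f2 and Nfe2 were 93.7, 94.4 and 94.6 kb from the start. The Zbtb7a member lay closest to Atcay and the Tcf3 member to Mex3d. Of the Gfi1b, Klf13, Myb, E2f2 and Nfe2 members, all but that of Gfi1b lay closest to another gene.

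Members were 2 of the 21 distal regions near 7 globin genes, and both lay upstream of α-globin genes, within 100 kb. One was in an intron of Mpg, 44.9 kb upstream of Hba-a1 (chr11:32238306-32238952), and scored 5.0 in 2 h replicate 1, 5.49 in 6 h replicate 2 and 5.13 in 12 h replicate 1. The other was in an intron of Il9r, 87.3 kb upstream of Hba-a1, and scored 4.88 in 2 h replicate 2, 3.85 in 6 h replicate 2 and 5.54 in 12 h replicate 1. Each met the rule with 3 lists and with no time point seen in both of its lists, and neither had a GATA match in its central 200 bp. No member was within 100 kb of a β-globin gene of the list.

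Genes of heme synthesis and iron had 1 member among 108 distal regions (0.926%), 45.0 kb from the start of Slc40a1, which encodes the iron exporter ferroportin. Red cell membrane genes had 2 among 97, near Tmod1 (a capping protein of the spectrin skeleton) and Rhd. Immediate early genes had 6 among 130 (4.62%), the highest ranked near Btg2, Ier3 and Maff, each in 4 lists. Mast cell and megakaryocyte genes had 3 among 87, near the platelet chemokine genes Pf4 and Ppbp, the mast cell protease gene Cpa3, and Itga2b. Genes of cell cycle and maturation had 3 among 111, near Ube2o and Trim58, both of which act in protein turnover of late red cell precursors, and Cdkn1a. Each of these shares rests on 6 members or fewer, and near means within 100 kb. The Btg2, Ier3 and Maff members lay closest to Chit1, Flot1 and Tmem184b, in that order. Those of Cdkn1a, Cpa3, Rhd and Slc40a1 lay closest to Stk38, Gyg, Syf2 and Gm5269. The member near Pf4 and Ppbp lay closest to Rassf6.

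Peaks outside the members were then compared between the 6 mid-course lists and the 4 end lists, to ask whether the surroundings of members differed. Outside every member, the share of a list's peaks that lay within 50 kb of a member was 9.22% and 9.19% (2 h), 9.06% and 9.06% (6 h) and 9.25% and 9.16% (12 h), against 9.50% and 9.20% (0 h) and 9.45% and 9.0% (24 h), with the member peaks left out of the list total. The groups overlapped, with means of 9.16% ± 0.0809 (SD, n = 6) and 9.29% ± 0.230 (SD, n = 4), and the difference of -0.130 percentage points did not pass (exact permutation test, two-sided p = 0.248, adjusted p = 0.286). With the member peaks kept in the total, where the rule puts 2.29% to 3.14% of the mid-course peaks and none of the end peaks, the difference was -0.378 percentage points. That value is a description, since its total is set in part by the rule.

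The promoters of the 689 nearest genes had a peak in 56.7% and 58.1% of cases (2 h), 56.7% and 64.3% (6 h) and 56.7% and 58.2% (12 h), against 59.2% and 53.6% (0 h) and 55.6% and 53.3% (24 h). The groups overlapped, with means of 58.5% ± 2.94 (SD, n = 6) and 55.4% ± 2.74 (SD, n = 4), and the difference did not pass (exact permutation test, two-sided p = 0.129, adjusted p = 0.286). Over all protein-coding genes the share ran from 35.3% to 42.5%, and 6 h replicate 2 was highest in both. The share of peaks outside members that were distal was 45.0% ± 4.14 mid-course (SD, n = 6) and 41.1% ± 6.42 at the ends (SD, n = 4), which did not pass either (exact permutation test, two-sided p = 0.286, adjusted p = 0.286). With equal-size lists the sign of this last difference turned.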

How the data were processed

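ATAC-seq peak lists of 10 libraries of G1E-ER4 cells (5 time points, 2 libraries each) were used. Per the labels, the authors aligned reads to mm10 and called peaks with MACS2. The processing notes name Bowtie 1.0.0 and the study's methods Bowtie2, so the aligner is unsettled. Each deposited list gives 1 bp summits with a score, the −log10 q-value, whose lowest value (1.30192) is near a q of 0.05. Replicates were called separately, and no read counts or depths are given.

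Lists held 10697 to 19855 peaks. Summits were extended by 250 bp, merged, and compared with 54075 starts of 21646 protein-coding genes (GENCODE M21, comprehensive set). Sequence came from the RefSeq copy of GRCm38.p6. Python 3.11.15, numpy 2.4.6, pandas 2.3.3 and scipy 1.17.1 were used, and the rule was tested on simulated lists. Mid-course and end libraries were compared by exact permutation (210 splits, Benjamini-Hochberg over 4 tests). The neighbour share as first planned kept member peaks in its total. The test over peaks outside members took its place among the 4 after the data were seen. Alternatives changed list size, score minimum, window, list minimum, distances and the libraries used. Named members were the 10 highest ranked and up to 3 per gene list. CTCF members and the remaining genes of the cytokine and erythroid lists were named after their values were seen. The members and gene lists were chosen with earlier results of these data known. A marker gene that was checked is not reported here.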

Additional observations from a re-analysis of the deposited data

Results flagged for a closer look

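The share of the 689 nearest genes of members with a promoter peak was 64.3% in the 6 h replicate 2 list, far from the 56.7% to 58.2% of the other 5 mid-course lists. Its distance to the nearest other value was 0.808 of the range of the group, above Dixon's 95% critical value for 6 samples. This list was the longest of the 10 and also had the highest share over all protein-coding genes (42.5%), and the part of list length in the value was not tested. Among 19 groups of values examined this was the 1 flagged, and chance flags about 1 in 20 groups.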

How the results depend on the processing

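The count of 741 members was 214 with lists of equal size and 241 with at least 4 mid-course lists. It ran from 348 to 1251 (2.07% to 7.09% of distal regions) when one library was left out. The rule kept its minimum of 3 mid-course lists there, so it was harder to meet without a mid-course library and easier without an end library. With scores of at least 2 or 3 and with other windows it was between 678 and 735, and with the basic transcript set, an alternative chosen after seeing the data, it was 759. The GATA share of members was 45.8% with equal lists, 44.4% with at least 4 lists and 53.4% in 400 bp (52.7% in all distal regions), and 37.2% to 43.5% without one library. The CTCF share was 7.94% with equal lists, 21.5% with a relaxed consensus (15.4% in all distal regions), both chosen after seeing the data, and 11.2% to 14.7% without one library.

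The neighbour share difference with member peaks in the total is set in part by the rule, so its tests are not read. Its value (-0.378 percentage points) turned to 0.0545 with equal lists and was -0.318 with a score of at least 3, -0.396 with 100 bp windows, -0.129 with at least 4 lists, -0.157 within 20 kb and -0.813 to -0.189 without one library. Over peaks outside members, chosen after seeing the data, it was -0.130. The distal share difference turned to -0.791 percentage points with equal lists and was 0.943 to 5.18 without one library. The differences without one library were 1442 to 3066 peaks for list size and 1.92 to 4.02 percentage points for nearest promoters, with no change of call.

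With replicate numbers as a block (100 splits), the exact p was 0.19 for list size (2311 peaks), 0.15 for nearest promoters (3.06) and 0.32 for the distal share (3.95), with no change of call. The deviations of same-numbered libraries correlated by 0.0796 to 0.249, and 9 of 10 values were over 0.1. The median score of a list was higher in replicate 2 at 5 of 5 time points. The labels do not say what a number marks, and whether same-numbered libraries belong together was not settled. A summit missing from a list is no measure of closed chromatin, and depth, which the lists do not give, limits each absence.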
